A study of Arabidopsis thaliana with 34 samples.

Results

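Short transposable elements (TEs) in the chromosome arms of Arabidopsis thaliana were examined for the peaks that NRPE1, linker histone H1, H3K9me2 and SUVH1 had on them. The members were the TEs of the study's sheet of long and short TEs that measured less than 2 kb and whose midpoint lay outside the pericentromeres, which were taken as 12 to 18 Mb of chromosome 1, 1 to 7 Mb of chromosome 2, 11 to 17 Mb of chromosome 3, 1 to 6 Mb of chromosome 4 and 9 to 16 Mb of chromosome 5. This gave 817 arm short TEs of 1562 TEs in all, beside 453 pericentromeric short TEs and 292 TEs of 2 kb or more. The sheet is credited to an earlier publication, and how its TEs were drawn from the genome is not given in the sources used here, so shares of members with a peak describe this sheet and not short TEs at large.

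The study asked how linker histone H1 shapes where the RNA-directed DNA methylation (RdDM) machinery goes. The 18 peak lists used come from ChIP-seq libraries in 9 groups of 2. NRPE1 was mapped in h1, in ZF108-DMS3 and in WT, H1 in nrpe1, in ZF108-DMS3 and in WT, H3K9me2 in h1 and in WT, and SUVH1 in h1 only. All plants were of the Col-0 ecotype. The h1 plants carried T-DNA insertions in both main linker histone genes (h1.1-1 h1.2-1), nrpe1 was the nrpe1-11 insertion allele, and WT was unmodified Col-0. ZF108-DMS3 plants were Col-0 homozygous for a transgene that fuses DMS3, a subunit of the complex that brings Pol V to chromatin, to 3xFLAG and the artificial zinc finger ZF108, which binds many sites besides its target. SUVH1 was mapped through a 3xFLAG tag in h1 plants that carried the SUVH1-3xFLAG transgene, with no WT counterpart. Each library came from pooled seedlings of 10 to 12 days according to the methods, whereas the labels give floral tissue. No list can check the mutations themselves, since H1 was not mapped in h1, nor NRPE1 in nrpe1.

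NRPE1 is the largest subunit of RNA polymerase V (Pol V), a plant polymerase whose transcripts serve as scaffolds for small RNAs, so that the methyltransferase DRM2 is led to matching DNA. RdDM is known for acting on short and young TEs near genes, whereas the long TEs of pericentromeric heterochromatin keep their methylation largely through CMT2, CMT3 and MET1 together with H3K9me2. Linker histone H1 binds nucleosomes and the DNA between them and compacts heterochromatin. SUVH1 is a reader of methylated DNA that has been linked to the expression of genes next to methylated TEs.

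The members were small, AT-rich and close to genes. They measured 501 to 1983 bp with a median of 864 bp and covered 759212 bp in all. Chromosomes 1 to 5 held 220, 171, 149, 115 and 162 of them. Their median GC content was 23.9%, against 24.2% for pericentromeric short TEs, 37.9% for TEs of 2 kb or more and 36.0% for the nuclear genome. By the TAIR10.1 annotation, 665 members (81.4%) were intergenic, 43 overlapped a coding exon, 94 a non-coding exon and 15 an intron. The nearest protein-coding gene lay a median of 383 bp away. Of the members, 727 (89.0%) had a protein-coding gene within 2 kb, and 444 lay upstream of the nearest gene, 221 downstream of it and 152 on it. An annotated pseudogene overlapped 63 members (7.71%), and 20 members overlapped another member. None lay within 2 kb of FWA, SDC, ROS1, EPF2, FLC, IBM1, BNS, PHE1 or SUP, loci well known in studies of DNA methylation or imprinting.

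The 8 stretches of sequence below stand for the patterns described further on and were chosen with their values known. Each is the plus strand of TAIR10, 5′ to 3′, with 100 bases on each side of the highest NRPE1 summit of the TE, and CG sites are in capitals. The letters come from the RefSeq TAIR10.1 genome. The first lies on AT1TE20410 on AT1G18310 (chr1:6302878-6303078, GC 36.8%, 2 CG sites), a TE covered more in both h1 libraries than in both WT libraries.
TE on AT1G18310: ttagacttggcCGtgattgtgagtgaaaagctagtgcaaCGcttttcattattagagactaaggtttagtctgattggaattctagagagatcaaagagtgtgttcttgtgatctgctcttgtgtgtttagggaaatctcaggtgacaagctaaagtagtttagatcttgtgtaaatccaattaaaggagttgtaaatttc
The next pair lies on TEs that were covered less in both h1 libraries than in both WT libraries. These windows, near EXPA1 (chr1:26140007-26140207) and near PGRL1B (chr4:7178078-7178278), have GC contents of 24.4% and 27.4% and hold 3 and 4 CG sites.
TE near EXPA1: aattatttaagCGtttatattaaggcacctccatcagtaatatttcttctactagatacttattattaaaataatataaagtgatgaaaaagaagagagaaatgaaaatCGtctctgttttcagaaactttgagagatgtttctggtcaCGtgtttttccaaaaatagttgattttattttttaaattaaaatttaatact
TE near PGRL1B: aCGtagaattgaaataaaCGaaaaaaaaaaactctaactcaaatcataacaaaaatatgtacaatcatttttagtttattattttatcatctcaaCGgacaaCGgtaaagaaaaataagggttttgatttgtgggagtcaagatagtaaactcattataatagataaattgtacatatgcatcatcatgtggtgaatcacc
The next 3 windows belong to 3 of the 5 TEs whose highest NRPE1 peak had the highest percentile of fold enrichment in WT, and the windows of the other two are not shown. The 3 shown lie near AT4G23080 (chr4:12092886-12093086), AT2G18490 (chr2:8016593-8016793) and AT5G41720 (chr5:16681311-16681511). All 3 summits lay outside the TE in the flanking DNA. The windows near AT2G18490 and AT5G41720 are runs of C and T over 84.6% and 86.1% of their bases, share an identical stretch of 26 bp and hold 1 CG site each.
TE near AT4G23080: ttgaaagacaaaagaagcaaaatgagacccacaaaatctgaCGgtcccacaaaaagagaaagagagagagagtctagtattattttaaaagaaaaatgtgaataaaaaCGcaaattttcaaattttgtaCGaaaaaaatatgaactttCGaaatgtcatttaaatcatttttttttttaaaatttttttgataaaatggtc
TE near AT2G18490: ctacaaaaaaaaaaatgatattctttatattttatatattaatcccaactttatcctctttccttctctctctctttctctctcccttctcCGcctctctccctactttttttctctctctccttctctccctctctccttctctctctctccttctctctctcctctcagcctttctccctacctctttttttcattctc
TE near AT5G41720: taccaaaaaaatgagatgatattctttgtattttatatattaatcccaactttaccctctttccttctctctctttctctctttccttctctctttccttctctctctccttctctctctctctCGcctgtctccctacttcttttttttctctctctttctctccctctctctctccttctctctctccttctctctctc
The last pair belongs to TEs with full NRPE1 coverage in WT and none in ZF108-DMS3, on AT4G27890 (chr4:13888012-13888212, 1 CG site) and near PLDBETA2 (chr4:105988-106188). The window near PLDBETA2 holds 15 CG sites, the most of the 8.
TE on AT4G27890: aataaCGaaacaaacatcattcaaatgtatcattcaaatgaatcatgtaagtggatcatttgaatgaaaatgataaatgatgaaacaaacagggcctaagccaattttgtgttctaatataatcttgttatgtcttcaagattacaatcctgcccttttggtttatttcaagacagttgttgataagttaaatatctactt
TE near PLDBETA2: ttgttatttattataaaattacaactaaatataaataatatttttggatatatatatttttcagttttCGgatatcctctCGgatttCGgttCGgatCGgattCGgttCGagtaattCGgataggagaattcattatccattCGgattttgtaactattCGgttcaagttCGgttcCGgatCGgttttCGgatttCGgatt

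Each library had its own peak list, and as the lists hold no reads, sequencing depth is unknown. The NRPE1 lists held 23861 and 24961 peaks in h1 (replicates 1 and 2), 18173 and 20358 in ZF108-DMS3 and 25522 and 24915 in WT. Peaks in h1 were wider genome-wide, with medians of 565 and 503 bp, against 383 and 393 bp in WT. Replicate 1 of NRPE1 in ZF108-DMS3 stood apart from replicate 2 on the members, as given with each result. Below, coverage is the share of the bases of the TEs that lies under peaks of a list, and p-values measure only the spread between these libraries. With 2 libraries against 2, the exact two-sided permutation test cannot give p below 0.333, so no difference between genotypes could reach significance, and "higher" or "lower" describes values only.

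NRPE1 peaks covered most of the arm short TEs in both h1 and WT, and the total did not separate the genotypes. In h1, 66.9% and 63.9% of the bases were covered (65.4% ± 2.11, SD, n = 2), against 65.0% and 69.7% in WT (67.4% ± 3.34, SD, n = 2). The 2 groups overlapped, with a difference of −1.95 points, less than the 4.72 points that separated one WT library from the other (p = 0.667 by exact permutation, and 0.833 after Benjamini-Hochberg adjustment over 5 comparisons). Without replicate 2 of WT it was 0.406 points. A peak was present on 792 and 791 members in h1 and on 797 and 804 in WT, counts that did not overlap but differed by 9 of 817 on average. In all 4 lists, 777 members had a peak (95.1%), against 96.2% of all TEs of the sheet. Whole coverage was found on 288 and 263 members in h1 and 216 and 263 in WT, and on 171 members (20.9%) in all 4 lists, against 15% over the sheet. The peaks were also strong within their lists: the highest peak on a member had a median fold enrichment at the 84.8 and 85.3 percentiles of the h1 lists and at the 86.7 percentile of both WT lists.

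**Figure D1:**
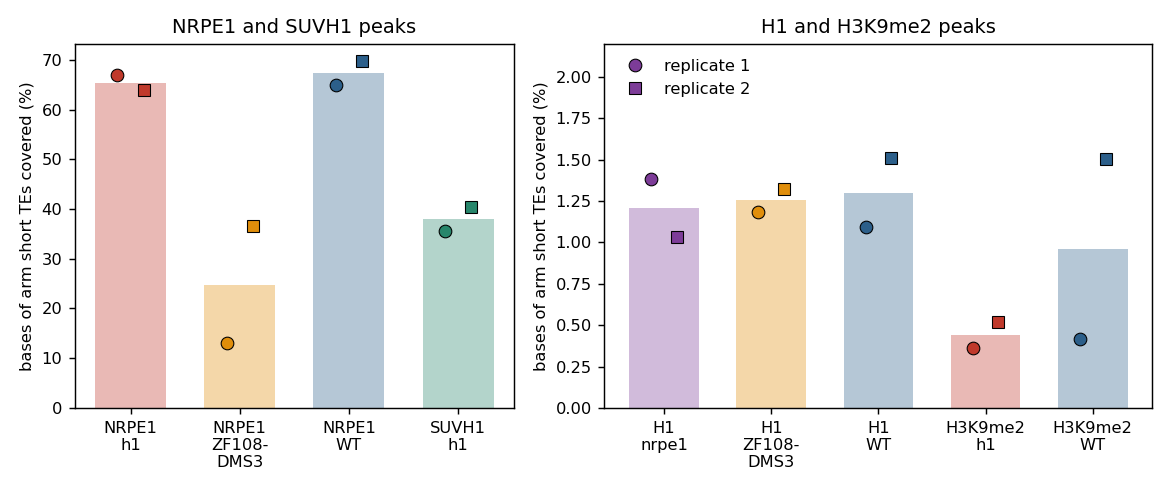
Share of the bases of the 817 arm short TEs under peaks (%), for each antibody and genotype; bars are means of 2 libraries and points are replicates 1 (circle) and 2 (square), with separate scales for the 2 panels. NRPE1 covered 63.9% to 69.7% in h1 and WT, 13.0% and 36.6% in ZF108-DMS3, and SUVH1 35.7% and 40.5% in h1, whereas H1 and H3K9me2 stayed at 1.51% or less.

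Among the other TEs of the sheet, the pericentromeric short ones also overlapped between genotypes, whereas the long ones did not. Pericentromeric short TEs were covered to 70.6% and 68.0% in h1 and 62.5% and 70.1% in WT, and TEs of 2 kb or more to 82.3% and 80.2% in h1 and 47.6% and 43.7% in WT. Coverage of arm short TEs minus that of pericentromeric short TEs was −3.66 and −4.07 points in the h1 libraries, against 2.51 and −0.38 points in the WT libraries. The libraries did not overlap, and the change in h1 was 4.93 points lower in the arms (exact permutation p = 0.333, the smallest possible).

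Beneath the level total, single members differed in both directions. In both h1 libraries, 102 members (12.5%) were covered more than in either WT library, against 26.4% of all TEs of the sheet, and 224 (27.4%) were covered less, against 22.7% of the sheet. Higher coverage was thus rarer among arm short TEs than over the sheet, and lower coverage somewhat more frequent. The remaining 491 had overlapping libraries. With 1 library left out the number covered more was 183 without replicate 2 of h1 and 230 without replicate 2 of WT, and the number covered less 338 without replicate 1 of h1 and 340 without replicate 1 of WT. The median change was 0 points, the same as over the sheet, and the middle of the distribution ran from −8.50 (25th percentile) to 1.96 (75th). Changes above 20 points upward were seen in 56 of the 817 members, 283 of the 1562 TEs of the sheet and 55 of the 453 pericentromeric short TEs. Downward, such changes were seen in 83, 134 and 45 of them.

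**Figure D2:**
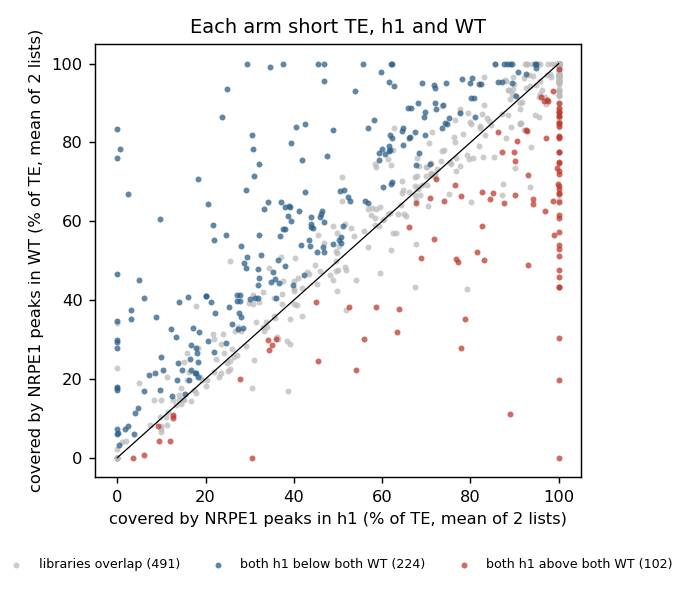
Coverage by NRPE1 peaks of each of the 817 arm short TEs (% of its bases), as the mean of 2 h1 libraries (x axis) against the mean of 2 WT libraries (y axis), with the line of equality. The 102 TEs covered more in both h1 libraries (red) lie right of the line, some of them at full coverage in h1, and the 224 covered less (blue) lie left of it.

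The 2 classes differed in base composition. The 102 members covered more in h1 had a median GC content of 30.2% and a median of 4.17 bases in CG sites per 100, whereas the 224 covered less had 22.4% and 1.97, and the 491 overlapping ones 24.3% and 3.02. The nearest gene was a median of 488.5 bp from members covered more in h1, 287.5 bp from those covered less and 449 bp from the others. Lengths were closer, with medians of 963.5, 868 and 839 bp.

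Members were therefore divided into quartiles by GC content, a division chosen after the data were seen. The quartiles ran from 15.0% to 21.9%, 22.0% to 23.9%, 23.9% to 29.2% and 29.3% to 50.9% GC. In the lowest quartile (204 members), NRPE1 covered 54.9% and 51.1% in h1, against 58.3% and 63.5% in WT. In the second, it covered 55.5% and 51.5% in h1, against 58.4% and 64.7% in WT. In both, each h1 library lay below each WT library, by 7.88 and 8.06 points on average. In the third quartile the values were 61.6% and 58.9% in h1 and 61.9% and 66.1% in WT, a difference of −3.75 points. The highest quartile (205 members) went the other way, with 93.9% and 92.5% in h1 and 80.5% and 83.8% in WT, 11.1 points higher in h1 and without overlap.

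The difference between the highest and lowest quartile was 39.0 and 41.3 points in the h1 libraries, against 22.2 and 20.3 points in the WT libraries, so that it was 19.0 points wider in h1 (exact permutation p = 0.333). Leaving out each library in turn gave 17.8 to 20.1 points. Pericentromeric short TEs of the same GC ranges (145 and 119 TEs) gave 43.9 and 48.0 points in h1 and 19.2 and 18.02 points in WT. Across the 817 members, Spearman's rho between GC content and NRPE1 coverage was 0.49 in both h1 lists and 0.31 and 0.30 in the WT lists, over TEs that share their libraries. CG density gave 0.53 in both h1 lists, against 0.37 and 0.34 in WT. In the SUVH1 lists, coverage went from 17.7% and 24.1% in the lowest quartile to 68.2% and 69.7% in the highest. GC content thus moved with coverage in every NRPE1 and SUVH1 list, and the part of fragment recovery or unique mapping in this was not tested.

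**Figure D3:**
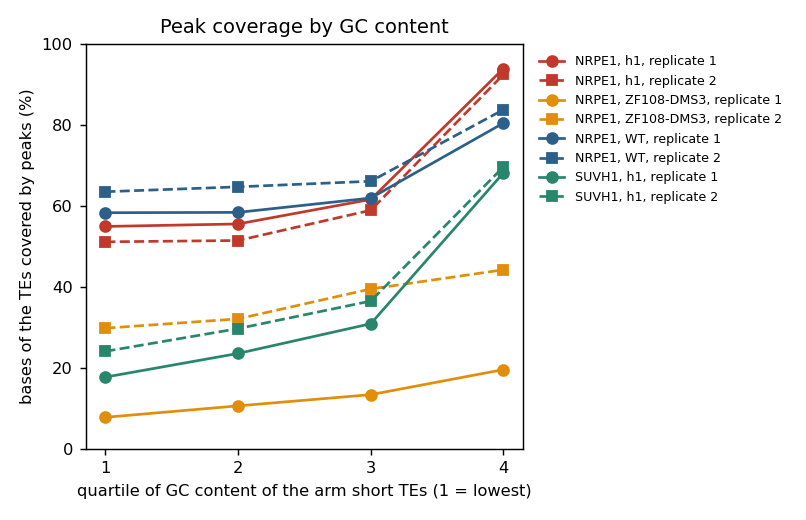
Share of bases under peaks (%) in the 4 quartiles of GC content of the arm short TEs (1, lowest; 4, highest), with a line for each library (circles and solid lines, replicate 1; squares and broken lines, replicate 2). The h1 lines of NRPE1 (red) lie below the WT lines (blue) in quartiles 1 to 3 and above them in quartile 4, at 93.9% and 92.5% against 80.5% and 83.8%.

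H1 peaks were scarce on arm short TEs, and the few members that had them were covered more by NRPE1 in h1 than in WT. In the WT lists of H1, 24 and 34 members had a peak, and 757 members (92.7%) had none in any of the 6 H1 lists, against 70.2% of pericentromeric short TEs and 21.2% of TEs of 2 kb or more. The 21 members with an H1 peak in both WT lists had a median GC content of 40.9%. NRPE1 covered 87.8% and 89.7% of them in h1, against 60.1% and 60.6% in WT, a difference of 28.4 points. The 16 with H1 in 1 WT list differed by 7.25 points and the 780 with none by −3.15 points. Coverage of the 21 minus that of the 780 was 21.9 and 27.0 points in h1 libraries, against −4.90 and −9.25 points in WT libraries (exact permutation p = 0.333). Of these 21 members, 12 were covered more in both h1 libraries and none less, against 102 and 224 of the 817, and 14 were covered whole in both h1 libraries, against 30.7% of the 817.

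An H1 peak was present in all 6 H1 lists on 12 members. They lay in the highest GC quartile without exception (38.2% to 50.0%), and 10 overlapped annotated pseudogenes. NRPE1 covered 91.0% and 95.1% of their bases in h1 and 52.3% and 52.4% in WT. Of the 12, 10 were covered more in both h1 libraries, against 12.5% of the 817 and 26.4% of the sheet. Members on pseudogenes differed in the same direction: the 63 members on a pseudogene were covered to 88.3% and 87.6% in h1, against 68.4% and 72.9% in WT, whereas the other 754 had 64.8% and 61.6% in h1 and 64.7% and 69.4% in WT. Since H1, pseudogenes and GC content went together, the highest GC quartile was also split. Set apart were its 172 members with no H1 peak in either WT list that touched no H3K9me2 region with peaks of both WT libraries. H3K9me2 peaks of a single WT list were not excluded by this. The 172 were covered to 94.7% and 92.6% in h1, against 82.9% and 86.5% in WT, 8.97 points higher. The other 33 had 90.4% and 91.9% in h1 and 69.4% and 71.2% in WT, 20.9 points higher. With members left out by the same rule in both quartiles, the gap between the highest and lowest GC quartile was 40.1 and 41.6 points in h1. In WT it was 24.4 and 22.9 points.

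The H3K9me2 peaks of the 2 WT libraries were joined where they met, and 9 members touched such a joint region, in some cases where only 1 library reached the TE. NRPE1 covered 98.3% and 98.04% of their bases in h1, against 80.5% and 77.8% in WT, and 8 of the 9 were covered whole in both h1 libraries, against 30.7% of the 817. Of the 9, 4 were covered more in both h1 libraries than in WT, against 12.5% of the 817 and 26.4% of the sheet. None of the 9 was covered less, against 27.4% of the 817 and 22.7% of the sheet. Their coverage minus that of the other 808 members was 31.8 and 34.5 points in h1, against 15.7 and 8.16 points in WT, 21.2 points wider in h1 (exact permutation p = 0.333). The 9 also had a median GC content of 38.2%, and 6 lay on pseudogenes.

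Size, chromosome and place upstream of, downstream of or on a gene separated the members less. Members of 0.5 to 1 kb (531) were covered to 68.2% and 65.1% in h1, against 68.4% and 72.8% in WT, and those of 1 to 2 kb (286) to 65.6% and 62.7% in h1, against 61.6% and 66.7% in WT. The larger members minus the smaller ones came to −2.63 and −2.41 points in h1 and −6.86 and −6.12 points in WT, which is 3.97 points higher in h1 without overlap of the libraries (exact permutation p = 0.333). The difference between h1 and WT lay between −3.76 and 1.82 points on the 5 chromosomes, and h1 and WT libraries overlapped on each. Upstream of genes it was −2.38 points, downstream −0.10 points and on genes −3.25 points, again with overlap. The 15 intronic members, at 65.1% and 65.7% in h1 and 73.1% and 76.1% in WT, and the 94 on non-coding exons, at 62.5% and 60.1% in h1 and 62.7% and 68.5% in WT, did not overlap between genotypes.

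NRPE1 coverage began outside the TEs and was nearly flat within them. In h1, it went from 20.2% and 19.1% in the outermost window of 250 bp, which began 750 bp outside the ends, to 65.2% and 63.4% in the last 100 bp outside and 69.7% and 67.7% in the first 100 bp inside. In WT, the same windows had 18.04% and 19.6%, then 63.6% and 68.1%, then 69.1% and 73.3%. Base composition changed more sharply than coverage, from 32.5% GC in the last 100 bp outside to 26.5% in the first 100 bp inside. The strongest summit per member sat a median of 157 and 152 bp from the nearest end in h1 and 133 and 135 bp in WT, and inside the TE for 53.5% and 55.5% of members in h1 and 52.6% and 54.0% in WT.

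**Figure D4:**
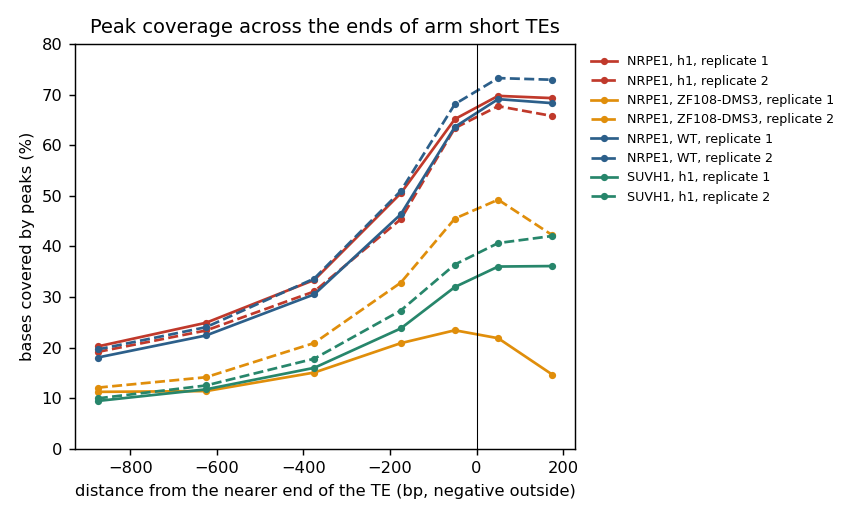
Share of bases under NRPE1 or SUVH1 peaks (%) against the distance from the nearer end of the TE (bp; negative, outside), averaged over both ends of the 817 arm short TEs, with a line for each library (solid, replicate 1; broken, replicate 2). NRPE1 in h1 and WT reached 67.7% to 73.3% in the first 100 bp inside, SUVH1 in h1 36.0% and 40.7%, and NRPE1 in ZF108-DMS3 21.9% and 49.2%.

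In h1, 5 members stood furthest above WT. AT1TE20410, a 575-bp TE on AT1G18310 (chr1:6302582-6303156, GC 39.5%), was covered to 100% in both h1 libraries and had no peak in WT or ZF108-DMS3. A TE upstream of NYC1, which encodes a chlorophyll b reductase of chlorophyll breakdown, lay at chr4:7688590-7689574 and was covered to 100% in both h1 libraries, against 15.5% and 23.8% in WT. The member adjoining it on the side of the gene, at chr4:7687714-7688589, was already at 86.0% and 100% in WT. Near AT4G09880, the values were 77.8% and 100% in h1 and 13.9% and 8.37% in WT. Near HVA22E, of a family known for responses to abscisic acid, a TE had 100% in both h1 libraries, against 10.8% and 50.0% in WT, and near AT5G46650 the TE had 100% in both h1 libraries, against 52.2% and 34.6% in WT. The members near NYC1, AT4G09880, HVA22E and AT5G46650 each overlap an annotated pseudogene. AT1TE20410 and the TE near AT5G46650 held their highest h1 summit inside. For the TEs near NYC1, AT4G09880 and HVA22E it lay outside the TE. Near HVA22E, the window around that summit was chr5:20628130-20628330, whereas the TE lay at chr5:20631775-20632292.

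At the other end, 5 members stood furthest below WT in h1. AT1TE85640, 1185 bp upstream of EXPA1, an expansin that loosens cell walls, had no NRPE1 peak in either h1 library, against 83.5% and 83.4% in WT. It kept 69.5% in replicate 2 of ZF108-DMS3 and had none in replicate 1. A TE 64 bp upstream of PGRL1B, which takes part in cyclic electron flow around photosystem I, had 0.90% and 0.30% in h1, against 61.4% and 95.5% in WT. Near AT4G09520, a TE had no peak in h1, against 70.2% and 81.9% in WT, while 66.4% and 70.01% were covered in ZF108-DMS3. AT1TE20035 near AT1G18000 had 29.9% and 28.9% in h1, against 100% in both WT libraries, and near AT4G10603 a TE had 31.2% and 18.6% in h1, against 87.0% and 100% in WT. None of the 5 had a SUVH1 peak, and their GC contents lay between 18.9% and 25.9%, against 35.1% to 44.4% for the 5 above WT.

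**Figure D5:**
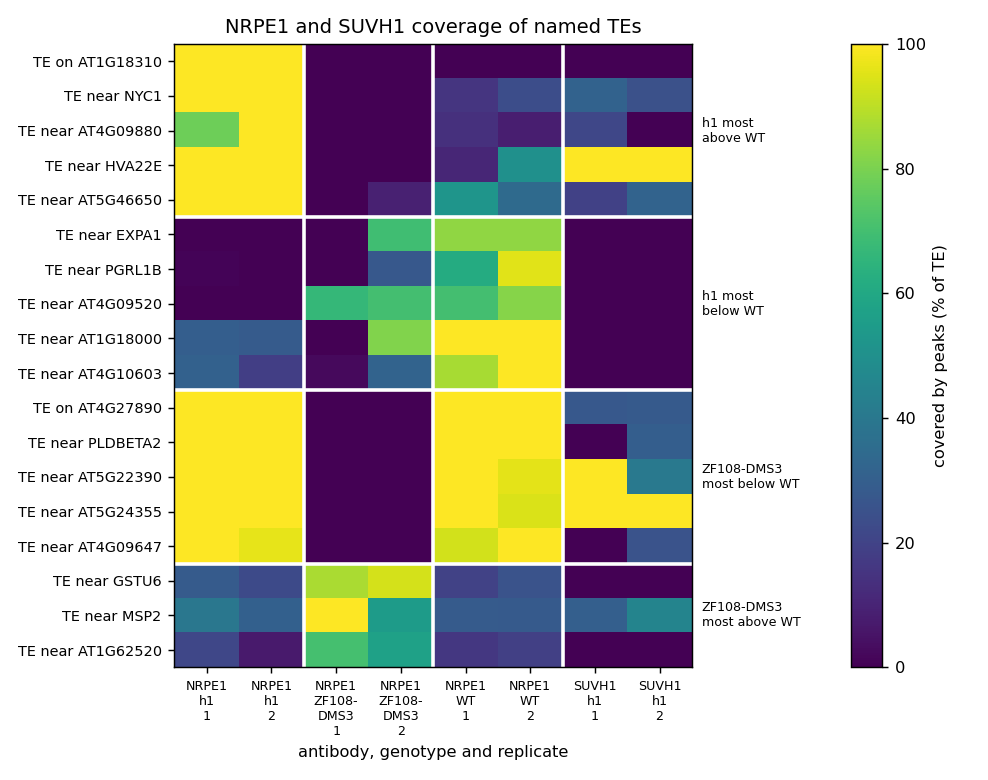
Coverage by peaks (colour, % of the TE) of 18 named arm short TEs (rows) in 6 NRPE1 lists and 2 SUVH1 lists (columns, with genotype and replicate). From the top, the groups are the 5 TEs of which h1 was furthest above WT, the 5 of which it was furthest below, the 5 with the lowest ZF108-DMS3 coverage relative to WT and the 3 with the highest; the TE near EXPA1 is at 0 in both h1 lists and the TE near GSTU6 at 87.2% and 93.6% in ZF108-DMS3.

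Peaks were seldom lost or gained outright. There were 12 members (1.47%) that had NRPE1 in both WT lists and neither h1 list, against 0.832% over the sheet. That share of the sheet is 13 TEs, namely these 12 and 1 pericentromeric short TE. NRPE1 was in both h1 lists and neither WT list on 3 members (0.367%), against 0.32% over the sheet. The 12 had GC contents of 17.3% to 25.9%, WT coverages of 2.12% to 83.5% and no SUVH1 peak. SUVH1 peaks lay almost only on members with NRPE1 in h1 (494 of 494 and 524 of 525), so their absence is no separate finding. Upstream of the nearest gene lay 54.3% of all members and 10 of the 12. A peak in replicates 1 and 2 of ZF108-DMS3 was found on 46.8% and 86.4% of all members, and on 4 and 11 of the 12. They include TEs near MBD5, a protein with a methyl-CpG-binding domain (31.2% and 38.2% in WT), near RR21, a response regulator of cytokinin signalling (47.1% and 46.3% in WT), and near TTG1, a regulator of trichome formation (27.4% and 28.2% in WT). The member adjoining the one near TTG1, at chr5:8374285-8374969 with 40.1% GC, was covered to 100% and 97.4% in h1 and 95.5% and 90.8% in WT. The TEs near MBD5, RR21 and TTG1 and the adjoining members were picked after their values were seen, outside the rule for named TEs. The 3 gains were AT1TE20410 and TEs near AT5G49260 (32.9% and 28.1% in h1) and AT3G23650 (2.62% and 4.67% in h1). Gains numbered 5 without replicate 1 of WT and 9 without replicate 2 of WT.

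In ZF108-DMS3, NRPE1 coverage of arm short TEs was lower than in WT, by an amount that differed between the replicates. It was 13.0% and 36.6% (24.8% ± 16.7, SD, n = 2), against 65.0% and 69.7% in WT, with no overlap and a difference of −42.6 points (exact permutation p = 0.333, adjusted 0.833). A peak was left on 382 and 706 members in ZF108-DMS3, against 797 and 804 in WT. Without replicate 1 of ZF108-DMS3 the difference was −30.7 points, and without replicate 2 it was −54.4 points. Coverage was lower in both ZF108-DMS3 libraries for 698 members (85.4%), against 88.4% of all TEs of the sheet, and higher for 9 (1.10%), against 0.96%. Whole coverage in all 4 lists was found on 3 members, against 0.256% of the sheet, and a peak in both ZF108-DMS3 lists and neither WT list on 2, against 0.192%. A peak in both WT lists and neither ZF108-DMS3 list was found on 89 members (10.9%), against 11.7% over the sheet. This count was 415 when replicate 2 of ZF108-DMS3 was left out. The members were therefore close to the sheet as a whole in each of these shares. Pericentromeric short TEs had 11.3% and 30.6% in ZF108-DMS3 and 62.5% and 70.1% in WT.

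Members that kept NRPE1 in ZF108-DMS3 were those with the stronger peaks in WT. Among members with a peak in both WT lists, 373 kept one in both ZF108-DMS3 lists, 326 in list 2 only, 6 in list 1 only and 89 in neither. Peaks in all 4 lists were thus found on 45.7% of members, against 47.4% over the sheet. The median percentile of WT fold enrichment was 91.9 and 92.0 for the 373, 82.8 and 83.7 for the 332 with 1 list and 66.2 and 69.0 for the 89. Coverage in WT was 74.2% and 78.0% for the 373, 63.6% and 68.6% for the 332 and 43.4% and 49.3% for the 89. The nearest gene was a median of 391, 319 and 705 bp away. All peaks on a member with a peak summed to a median width of 430.5 and 627 bp in ZF108-DMS3, against 1046 and 1160 bp in WT. Single peaks differed less genome-wide, with median widths of 337 and 304 bp in ZF108-DMS3, against 383 and 393 bp in WT. The strongest summits sat closer to the ends in ZF108-DMS3, at medians of 102.5 and 113.5 bp, against 133 and 135 bp in WT. The gap between the highest and lowest GC quartile was 11.8 and 14.4 points in ZF108-DMS3, against 22.2 and 20.3 points in WT (exact permutation p = 0.333).

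The 5 members furthest below WT in ZF108-DMS3 had no peak in either of its libraries. They lay on AT4G27890 and near PLDBETA2, a phospholipase D, AT5G22390, AT5G24355 and AT4G09647, and their WT coverage was between 93.1% and 100%. In h1 the same 5 were covered to between 96.4% and 100%. In the other direction, 3 members went furthest. A TE 1066 bp upstream of GSTU6, a glutathione transferase of the tau class, had 87.2% and 93.6% in ZF108-DMS3, against 19.7% and 25.6% in WT. A TE near MSP2 had 100% and 55.0%, against 28.9% and 28.4% in WT, and one near AT1G62520 had 70.7% and 57.1%, against 16.3% and 19.1% in WT.

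H1 itself differed little between genotypes on these TEs. Its peaks covered 1.38% and 1.03% of the bases in nrpe1, 1.19% and 1.33% in ZF108-DMS3 and 1.09% and 1.51% in WT. The WT pair spanned all but the lowest value, and the differences were −0.0933 points for nrpe1 (exact permutation p = 0.667) and −0.0453 points for ZF108-DMS3 (exact permutation p = 1). Both changed sign once peaks below a −log10 q of 3 were dropped, to 0.0341 and 0.0860 points, and without replicate 2 of WT, to 0.114 and 0.162 points. They also did so without replicate 2 of nrpe1 (0.0801 points) and without replicate 1 of ZF108-DMS3 (0.0242 points). In nrpe1, 6 members were covered more in both libraries than in WT, against 4.67% of the sheet, and 8 less, against 3.84%. In ZF108-DMS3, 5 were covered more, against 3.71%, and 6 less, against 3.2%. These 4 counts are 0.612% to 0.979% of the members, below the sheet in each case, and most members had no H1 peak to change. Peaks were found in both nrpe1 lists and neither WT list on 1 member, against 0.32%, and the reverse on 3, against 0.768%. For ZF108-DMS3 the 2 counts were 2, against 0.256%, and 3, against 0.512%. In all 4 lists of nrpe1 and WT, 15 members (1.84%) had an H1 peak, against 15.9% of the sheet, and likewise 15 for ZF108-DMS3 and WT, against 16.6%. H1 peaks on members were weak within their lists, with median percentiles of fold enrichment of 33.0 to 50.5. H1 covered 38.6% and 45.1% of TEs of 2 kb or more in WT.

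The members with most H1 in WT were the pair of overlapping TEs near KING1, a regulatory subunit of SnRK1 kinase, AT2TE01550 near the cytokinin receptor gene WOL, and TEs on AT3G46360 and near AT5G46877. The smaller TE near KING1, at chr3:17984422-17984975, had H1 over 7.04% and 2.71% in nrpe1, 44.8% and 26.2% in ZF108-DMS3 and 69.1% and 66.2% in WT. NRPE1 covered it to 100% in both h1 libraries, against 42.1% and 79.4% in WT. AT2TE01550 had H1 over 47.1% and 41.9% in nrpe1, 59.1% and 35.2% in ZF108-DMS3 and 48.3% and 78.9% in WT, and NRPE1 over 100% in both h1 libraries, against 63.2% and 39.0% in WT. The TE near AT5G46877 had H1 over 68.6% and 39.9% in nrpe1, 25.5% and 0% in ZF108-DMS3 and 41.6% and 67.4% in WT. The nrpe1 and WT values overlapped for that TE and not for the other two, and since all were chosen for high H1 in WT, lower values elsewhere are no finding.

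H3K9me2 was almost absent from arm short TEs. Its peaks covered 0.362% and 0.519% of the bases in h1 (0.441% ± 0.111, SD, n = 2), against 0.414% and 1.51% in WT (0.960% ± 0.773, SD, n = 2). The groups overlapped, with a difference of −0.519 points (exact permutation p = 0.667, adjusted 0.833), and without replicate 2 of WT the difference was 0.0273 points. H3K9me2 peaks were found on 9 and 11 members in h1 and 10 and 24 in WT. In none of the 4 lists did 789 members (96.6%) have one, against 65.3% of pericentromeric short TEs and 26.7% of TEs of 2 kb or more. Coverage was higher in both h1 libraries for 1 member, against 1.47% of the sheet, and lower for 4, against 6.15%. An H3K9me2 peak in all 4 lists was found on 4 members, against 13% of the sheet. In both WT lists and neither h1 list it was found on 1, against 1.28%, and the reverse on 0, against 0.128%. The members with most H3K9me2 in WT were the 2 TEs near KING1, AT2TE01550 and AT2TE01560 near WOL and a TE near AT5G25210, and each overlaps a pseudogene. AT2TE01560 had H3K9me2 over 30.1% and 36.9% in h1 and 47.6% and 100% in WT, with NRPE1 over its whole length in all 4 lists. The TE near AT5G25210 had none in h1, against 48.8% and 66.4% in WT. Since these TEs were chosen for high H3K9me2 in WT, lower values in h1 are no finding.

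SUVH1 in h1 was found on the members that NRPE1 covered best. Its peaks covered 35.7% and 40.5% of the bases (38.1% on average) and lay on 494 and 525 members. NRPE1 was present in both h1 lists on all 494 and on 524 of the 525, but also on 788 of all 817 members (96.5%) and on 232 of the 260 without SUVH1, so the presence of a peak separated the members little. Spearman's rho between SUVH1 and NRPE1 coverage in h1 was 0.65 to 0.66 over the 817 members, which share their genotype and base composition between the lists. The 462 members with SUVH1 in both lists (56.5%) were covered by NRPE1 to 81.4% and 79.1% in h1, against 77.4% and 80.9% in WT. The 260 with SUVH1 in neither list were covered to 40.6% and 36.4% in h1, against 43.3% and 49.7% in WT. NRPE1 coverage was lower in both h1 libraries for 82 of the 462 (17.7%) and for 120 of the 260 (46.2%). These shares stand against 27.4% of the 817 and 22.7% of the sheet. It was higher for 67 of the 462 (14.5%) and 23 of the 260 (8.85%), against 12.5% of the 817 and 26.4% of the sheet. Median GC contents were 25.2% for the 462 and 22.5% for the 260. Without a SUVH1 list in WT, it cannot be told whether SUVH1 differed between genotypes.

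The members with the strongest NRPE1 peaks in WT were covered in h1 as well. They lay near AT4G23080 (100% and 91.1% in h1, 100% and 83.3% in WT), on AT1G56100 (AT1TE69285), near AT2G18490, near AT1G60110 (AT1TE73190) and near AT5G41720. The TEs on AT1G56100 and near AT2G18490 and AT5G41720 were covered whole in all 4 lists. Of the 5, 4 were covered whole by SUVH1 in both lists, the exception being the TE near AT4G23080, which had no SUVH1 peak. In ZF108-DMS3, the TE near AT4G23080 had no NRPE1 peak, AT1TE69285 had 50.2% and 67.0%, and the TE near AT2G18490, one of those with the CT-rich flank, had 100% and 90.7%. The highest SUVH1 peaks lay by AT1TE73190 and AT1TE69285, by 2 TEs near AT3G26539 that share 1 peak and on ADR1-L1, a helper of plant immune receptors. Of the 2 near AT3G26539, one was covered whole by NRPE1 in all 6 lists, and the other had 10.6% and 3.75% in h1, against 21.1% and 20.8% in WT.

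NRPE1 coverage in h1 and WT was similar on both sides of the limits of the rule. Arm TEs less than 250 bp short of the limit of 2 kb (26) had NRPE1 coverages of 72.3% and 71.3% in h1 and 63.0% and 70.8% in WT, and those less than 250 bp over it (23), which are not members, 73.1% and 72.7% in h1 and 66.7% and 68.6% in WT. The 116 members within 0.5 Mb of a pericentromere had 62.2% and 60.9% in h1 and 58.9% and 66.6% in WT, and the 128 short TEs up to 0.5 Mb on the other side had 65.3% and 62.3% in h1 and 61.8% and 68.2% in WT.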

How the data were processed

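The data were 18 peak lists of single ChIP-seq libraries. The series' 16 bisulfite and H3 samples were not analysed here. According to the methods, Bowtie2 2.1.0 placed reads on TAIR10, of which the authors kept those with a unique position and no mismatch. Samtools then took out duplicates, and MACS2 2.1.1 found peaks. The deposited data hold a separate peak list for each library. The control and settings for peak calling are not given in the sources used here. The fold enrichment, a ratio over local background, and the significance as −log10 p and −log10 q are deposited as the authors' peak caller wrote them. The deposited lists also hold a score, which played no part here. No reads are given, so depth is unknown, no interval was computed and depth could not be corrected.

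Peaks of the 5 nuclear chromosomes were kept. TE coordinates of the sheet count from 1, as checked on 426 TEs with known names, and 189 members could be named. Genes came from the RefSeq TAIR10.1 annotation. Coverage per library was compared by exact two-sided permutation of the libraries, and overlap meant at least 1 bp. Fold enrichment was used as a percentile within its list only. The members and lists were chosen with earlier results of these data known, and the sets by GC content, length, H1 peaks, pseudogenes and SUVH1 after the data were seen.

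TEs named were the 5 with the largest difference of NRPE1 coverage between h1 and WT in each direction and the 5 lowest and 3 highest in ZF108-DMS3 against WT, all without overlap of the libraries, the 5 with the highest NRPE1 fold percentile in WT and the 5 with the highest SUVH1 fold percentile, the 5 with most WT H3K9me2 or H1, and any member within 2 kb of 9 known loci. Each is named by its overlapping or nearest protein-coding gene. Some members that lost or gained NRPE1 peaks in h1, and some adjoining members, were also named outside these rules. Alternatives were a −log10 q of at least 3, equal peak numbers per list, pericentromeric 100-kb windows with at least 10% H3K9me2, a mean over members, a replicate block, coverage of at least 0.5 of the TE and leaving out each library. The counting was tested on simulated data. Python 3.11.15 with numpy 2.4.6, pandas 2.3.3, scipy 1.17.1 and matplotlib 3.10.9 was used.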

Additional observations from a re-analysis of the deposited data

Results flagged for a closer look

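NRPE1 coverage of arm short TEs differed between h1 and WT in opposite directions by GC content, with each h1 library on one side of each WT library in every quartile. The differences were −7.88, −8.06 and −3.75 points in quartiles 1, 2 and 3, and 11.1 points in quartile 4. Quartiles 1 to 3 together gave −6.50 points. In quartile 4, 172 members had no WT H1 peak and touched no H3K9me2 region with peaks of both WT libraries. These gave 8.97 points, and the other 33 members of that quartile gave 20.9 points. The difference between the highest and lowest quartile was tested over libraries (19.0 points, exact permutation p = 0.333, the smallest that 2 against 2 libraries can give); the other opposite directions were not tested against each other.

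H1 coverage in ZF108-DMS3 against WT also went in opposite directions by position. Downstream of genes (221 members) it was 1.64% and 2.23% in ZF108-DMS3 and 1.27% and 1.43% in WT, a difference of 0.588 points, and on genes (152 members) it was 0.995% and 0.717% in ZF108-DMS3 and 1.15% and 1.90% in WT, a difference of −0.673 points. The difference between the 2 positions was not tested, and it rests on few peaks, since 26 and 27 members had H1 in ZF108-DMS3 and 24 and 34 in WT.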

How the results depend on the processing

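For 16 results, 132 values were computed under alternatives, of which 113 were rated the same, 10 moved and 9 changed sign. For differences between groups only the sign was judged, whatever the size. For counts and for SUVH1 coverage only the size was judged. The 18 named TEs kept their direction in all 108 values. NRPE1 in h1 against WT was −1.95 points and lay between −4.31 and 0.406 with 1 library left out, the highest without replicate 2 of WT. NRPE1 in ZF108-DMS3 against WT lay between −54.4 and −30.7 points. H1 in nrpe1 against WT changed sign to 0.0341 points with a −log10 q of at least 3 and to 0.100 points with 19979 peaks per list, and lay between −0.300 and 0.114 points with 1 library left out, above 0 without replicate 2 of nrpe1 (0.0801) or of WT (0.114). H1 in ZF108-DMS3 against WT changed sign to 0.0860 points with that −log10 q, and lay between −0.252 and 0.162 points, above 0 without replicate 1 of ZF108-DMS3 (0.0242) or replicate 2 of WT (0.162). H3K9me2 in h1 against WT lay between −1.07 and 0.0273 points, the highest without replicate 2 of WT. The cause of these changes was not tested. With 1 library left out, the change in the arms minus that in pericentromeric short TEs lay between −6.38 and −3.48 points, that by H3K9me2 between 17.5 and 25.0 points, by H1 peaks between 29.0 and 34.1 points and by length between 3.60 and 4.34 points. Counts moved most. Members with NRPE1 in both WT lists and neither h1 list numbered 12 (12 to 15 with 1 library left out). They numbered 42 where a peak had to cover 0.5 of the TE. Gains numbered 3 and, by that overlap, 11. With 1 library left out they numbered 3 to 9 (5 without replicate 1 of WT, 9 without replicate 2). Members with NRPE1 in both WT lists and neither ZF108-DMS3 list numbered 89, and 279 by that overlap. With 1 library left out they numbered 91 to 415, the highest without replicate 2 of ZF108-DMS3. Members covered more in h1 numbered 114 to 230 with 1 library left out, with 183 without replicate 2 of h1 and 230 without replicate 2 of WT, and those covered less 245 to 340, with 338 without replicate 1 of h1 and 340 without replicate 1 of WT. Fewer lists to satisfy raise such counts by construction.

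The replicate block left every difference as it was, since the groups are balanced (−1.95 points for NRPE1 in h1, −42.6 points in ZF108-DMS3, −0.0933 and −0.0453 points for H1, −0.519 points for H3K9me2), with 0.5 as its smallest p. Same-numbered libraries deviated together with a correlation of −0.0632 for NRPE1 in h1, −0.0732 in ZF108-DMS3 and 0.507 for H3K9me2. The H3K9me2 libraries thus deviated together, but this rests on the 28 members with an H3K9me2 peak in any list. With 2 pairs and no shared batch or day in the labels, the replicate numbers were not taken to pair the samples. For H1 the correlation was −0.310 in nrpe1 and −0.209 in ZF108-DMS3, and rests on at most 60 members with an H1 peak. The pairs were also crossed, a choice made after seeing the data. For nrpe1 this gave 8 members higher and 10 lower in both pairs, in place of 7 and 9. For ZF108-DMS3 it gave 6 and 9, in place of 7 and 7.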
